A study of Mus musculus with 3 samples.

Results

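The miR-29 family was followed through 3 small RNA libraries of mouse ovary, which differed in the concentration of Di (2-ethylhexyl) phthalate (DEHP), a plasticizer. Members were taken by name, as the mature miRNAs mmu-miR-29a-3p, mmu-miR-29a-5p, mmu-miR-29b-3p and mmu-miR-29c-3p. Of these 4 names, 3 had a row in the count table, and mmu-miR-29a-5p was not analysed here. The table held 627 mature miRNAs in all, and 2 further arms of the family, miR-29c-5p and miR-29b-2-5p, also had rows and were described beside the members. The name of a miRNA ends in 5p or 3p for the side of the hairpin from which it is cut. The ovaries came from newborn female CD1 mice and were cultured for 72 h, to postnatal day 3, in medium that held 0, 10 or 100 μM DEHP. The solvent DMSO was the vehicle of DEHP and was given alone at 0 μM. No allele or transgene was named for any group. Each concentration was 1 library of pooled ovaries, so no test between concentrations could be made, and the intervals given here hold counting error only and not the difference between cultures.

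MicroRNAs pair with messenger RNAs through the seed, bases 2 to 8 counted from the 5′ end, and lower their translation and stability. The miR-29 family is known for repressing extracellular matrix genes, collagens and elastin among them, and the DNA methyltransferases Dnmt3a and Dnmt3b. In the newborn ovary, germ cell cysts are broken down and primordial follicles are assembled while the surrounding somatic cells lay down basement membrane, and DNA methylation of the oocyte is set later, as follicles grow.

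The mature sequences of the family are shown because the members differ from each other by few bases and share the part that recognises targets. They were copied from RefSeq on GRCm38.p6, 5′ to 3′, with the seed in capitals, and the first 3 are the members with counts.
mmu-miR-29a-3p: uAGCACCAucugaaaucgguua
mmu-miR-29b-3p: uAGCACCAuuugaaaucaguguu
mmu-miR-29c-3p: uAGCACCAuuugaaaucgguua
mmu-miR-29c-5p: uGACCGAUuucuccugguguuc
mmu-miR-29b-2-5p: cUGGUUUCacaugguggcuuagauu

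The members with counts had the same seed, AGCACCA, and no other of the 1679 mature names in the RefSeq table had it. mmu-miR-29a-3p and mmu-miR-29c-3p were identical at 21 of 22 positions and differed by C10U, counted from the 5′ end of mmu-miR-29a-3p. mmu-miR-29b-3p differed from mmu-miR-29a-3p by C10U, G18A, U21G and A22U and was 1 base longer. The end of mmu-miR-29b-3p, from base 18 to base 23, was AGUGUU, a motif known from studies of the nuclear import of this miRNA. This motif was found in 12 of the 1679 mature names (0.715%), read on the strand of the miRNA. Because of the single difference between mmu-miR-29a-3p and mmu-miR-29c-3p, and because the mismatches allowed in counting were not given in the sources used here, some counts of the rarer one could belong to the other. The 5p arms had other seeds, which were not shared with the 3p arms.

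The family is made from 4 hairpins at 2 loci. In GENCODE on GRCm38, which is the mm10 build named in the submitters' processing notes, Mir29a lies at chr6:31062660-31062747 and Mir29b-1 at chr6:31063023-31063093, both on the minus strand with 275 bases between them. No gene other than Mir29a itself overlapped the Mir29a hairpin, and 2 bases of Mir29b-1 overlapped an exon of the lincRNA Gm27019. Mir29b-2 lies at chr1:195037040-195037120 and Mir29c at chr1:195037547-195037634, both on the plus strand with 426 bases between them. Both hairpins were exonic in A330023F24Rik, a non-coding transcript of the same strand, and both lay across from an untranslated region of Cd46 on the minus strand. miR-29b-3p is cut from both Mir29b-1 and Mir29b-2, and its 2 rows in the table held the same counts in each library. The counts therefore did not say from which locus miR-29b-3p came.

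mmu-miR-29a-3p was the main member of the family. It had 2316 counts at 0 μM, 2064 at 10 μM and 308 at 100 μM DEHP. DESeq2 size factors (1.38, 1.35 and 0.546) set the libraries to a common scale. On that scale the 0 μM library had 1681 normalized counts (exact Poisson 95% interval 1613 to 1750), the 10 μM library 1531 (1466 to 1599) and the 100 μM library 564 (503 to 631). The libraries of 0 and 10 μM were close to each other, and the library of 100 μM was at 33.6% of the level at 0 μM, with an interval that did not overlap the others. By count, mmu-miR-29a-3p ranked 151 of the 627 miRNAs at 0 μM, 152 at 10 μM and 223 at 100 μM.

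mmu-miR-29b-3p had 91, 53 and 12 counts at 0, 10 and 100 μM. Its normalized counts were 66.0 (interval 53.2 to 81.1), 39.3 (29.5 to 51.4) and 22.0 (11.4 to 38.4). The level was lower at 10 μM, at 59.5% of that at 0 μM, and lower again at 100 μM, at 33.3%, although the intervals of 10 and 100 μM overlapped. mmu-miR-29c-3p had 61, 31 and 12 counts, and normalized counts of 44.3 (33.9 to 56.9), 23.0 (15.6 to 32.6) and 22.0 (11.4 to 38.4). Its levels at 10 and 100 μM, 52.0% and 49.7% of that at 0 μM, lay within each other's interval. With 12 counts each at 100 μM, mmu-miR-29b-3p and mmu-miR-29c-3p could not be told apart in that library. At 0 and at 10 μM the order was mmu-miR-29a-3p, mmu-miR-29b-3p and mmu-miR-29c-3p, and the intervals of the last 2 overlapped in both libraries.

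**Figure D1:**
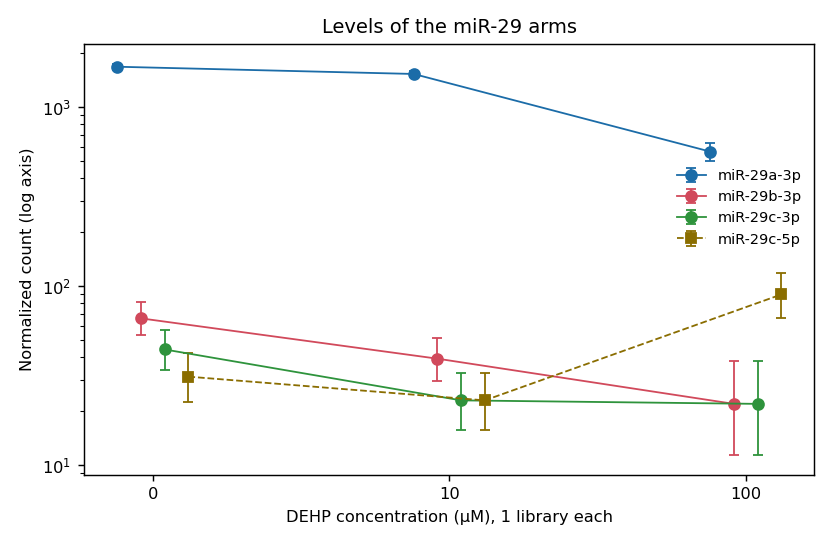
Normalized count (log axis) of 4 miR-29 arms in the libraries of 0, 10 and 100 μM DEHP, with exact Poisson 95% intervals as bars. Solid lines join the 3p arms and the dashed line miR-29c-5p, which at 100 μM stood at 89.8 while mmu-miR-29b-3p and mmu-miR-29c-3p stood at 22.0.

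The first comparison, 10 against 0 μM DEHP, asked whether the lower dose changed the family. The log2 ratio, taken after adding 0.5 to the normalized counts, was -0.13 for mmu-miR-29a-3p (exact Clopper-Pearson 95% interval of the split of the 2 counts, -0.22 to -0.05). It was -0.74 for mmu-miR-29b-3p (-1.26 to -0.24) and -0.93 for mmu-miR-29c-3p (-1.62 to -0.30). All 3 members were lower at 10 μM, by factors from 1.1 to 1.9, and all 3 intervals lay below 0. With a linear trend on GC content over all miRNAs removed, a choice made after seeing the data, the ratio of mmu-miR-29a-3p was -0.014, outside its interval and close to 0, while mmu-miR-29b-3p was at -0.59 and mmu-miR-29c-3p at -0.79. None of the 3 passed a log2 ratio of -2 or -1. The study required a log2 fold change beyond 2 and also set a limit on the false discovery rate. Its fold changes for miR-141-3p and miR-148a-3p were smaller than the ratios taken here (-5.62 and 3.33 between 100 and 0 μM). Its cutoff and the one used here are therefore not alike. Across the 587 miRNAs that reached a mean of 10 normalized counts, 0.681% lay below -2 and 5.11% below -1. The median log2 ratio was -0.74 over the 3 members and 0.02 over all 587 miRNAs, whose quartiles were -0.37 and 0.29. Of all miRNAs, 38.2% were lower than mmu-miR-29a-3p in this ratio, 8.35% were lower than mmu-miR-29b-3p and 6.13% were lower than mmu-miR-29c-3p.

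In the second comparison, 100 against 0 μM, the log2 ratio of mmu-miR-29a-3p was -1.57 (-1.75 to -1.40), a level lower by a factor of 2.98. That of mmu-miR-29b-3p was -1.57 (-2.59 to -0.71), a factor of 2.96. mmu-miR-29c-3p had a log2 ratio of -0.99 (-2.04 to -0.10), a factor of 1.99. The 3 members were again lower, 0 of 3 below -2 and 2 of 3 below -1, in a library where 9.37% of all miRNAs lay below -2 and 25.7% below -1. The median over the members was -1.57, against -0.01 over all 587 miRNAs, whose quartiles were -1.06 and 1.12. The sum of the 3 members was 1791 normalized counts at 0 μM, 1594 at 10 μM and 608 at 100 μM, or 34.0% of the level at 0 μM (log2 ratio -1.56, interval -1.73 to -1.39). In these bulk libraries, fewer cells that hold miR-29 and less miR-29 in each cell cannot be told apart.

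From 10 to 100 μM the ratios of the members covered a wide range. Only mmu-miR-29c-3p and mmu-miR-29a-3p stood apart from each other by more than counting error, in intervals not adjusted for their number. mmu-miR-29a-3p had a log2 ratio of -1.44 (-1.62 to -1.27), so most of its difference lay in this step. For mmu-miR-29b-3p the ratio was -0.82 (-1.88 to 0.08), and for mmu-miR-29c-3p it was -0.06 (-1.16 to 0.94), and both intervals held 0. Below -2 were 0 of 3 members and 8.69% of all miRNAs, and below -1 were 1 of 3 members and 24.7% of all miRNAs. The median of the members was -0.82 and that of all miRNAs -0.03. This comparison shares the 100 μM library with the second and the 10 μM library with the first, so the 3 sets of ratios are not independent.

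**Figure D2:**
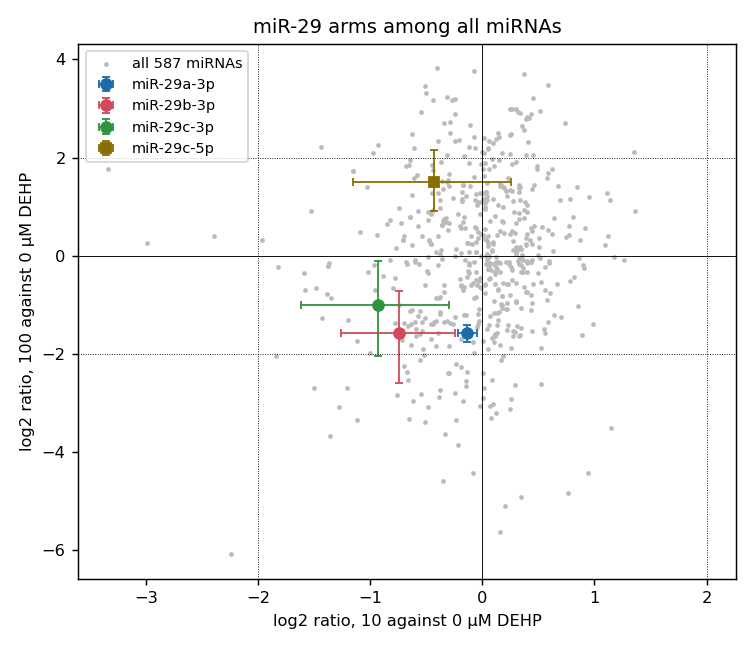
Each grey point is 1 of 587 miRNAs, by its log2 ratio of 10 against 0 μM (x axis) and of 100 against 0 μM DEHP (y axis), which share the 0 μM library, with counting 95% intervals for the miR-29 arms and dotted lines at 2 and -2. The 3p members lie below 0 on both axes, between -0.93 and -0.13 and between -1.57 and -0.99, and miR-29c-5p lies at 1.51 on the y axis.

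These sizes depended on how the libraries were set to a common scale. At 100 μM, the 10 most abundant miRNAs of the library held 70.5% of its counts, against 45.4% at 0 μM and 45.6% at 10 μM, which left fewer counts for the others. In CPM, counts scaled to the total of the library, mmu-miR-29a-3p went from 441 at 0 μM to 408 at 10 μM and 51.7 at 100 μM. With scaling to total counts the log2 ratios at 100 μM were -3.09 for mmu-miR-29a-3p, -3.05 for mmu-miR-29b-3p and -2.47 for mmu-miR-29c-3p, all 3 beyond -2. Under that scaling 35.9% of all miRNAs also lay below -2, and their median was -1.53. Another scaling shifts the ratios of all miRNAs by nearly the same amount, so it bears on the distance of the members from 0 and not on their distance from the other miRNAs.

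**Figure D3:**
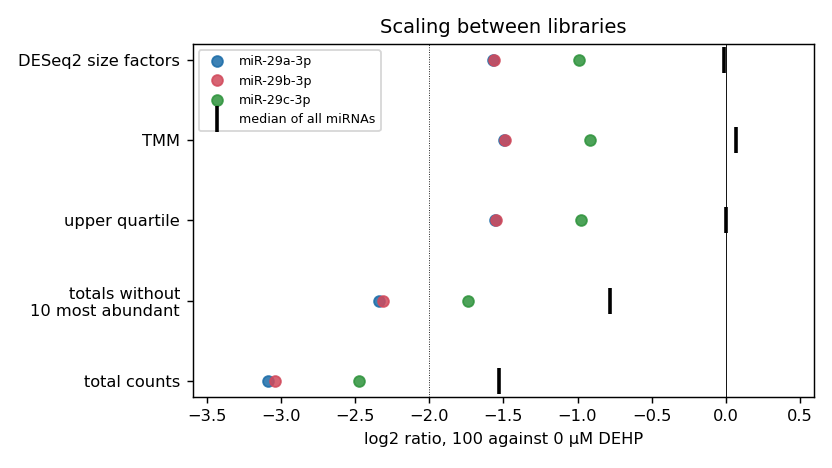
Log2 ratio of 100 against 0 μM DEHP (x axis) of the 3 members under 5 scalings between libraries (y axis), with the median of all miRNAs as a black bar, a solid line at 0 and a dotted line at -2. Members and median move together, because a scaling shifts all ratios by nearly the same amount, and mmu-miR-29c-3p is the member nearest to the median.

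The makeup of the family within a library does not depend on this scaling. Of the counts of the 3 members, mmu-miR-29a-3p held 93.8% without DEHP (92.8% to 94.7% as Wilson 95% interval), 96.1% with 10 μM (95.2% to 96.8%) and 92.8% with 100 μM (89.5% to 95.1%). mmu-miR-29b-3p held 3.69% (3.01% to 4.51%), 2.47% (1.89% to 3.21%) and 3.61% (2.08% to 6.21%). mmu-miR-29c-3p held 2.47% (1.93% to 3.16%), 1.44% (1.02% to 2.04%) and 3.61% (2.08% to 6.21%). The main member thus made up most of the family in every library, and the minor members had their smallest shares at 10 μM.

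Ratios between members were compared for 4 pairs in 3 comparisons, with exact conditional 95% intervals that were not adjusted for their number. At 10 μM the count of mmu-miR-29b-3p relative to mmu-miR-29a-3p was 0.654 times that at 0 μM (0.454 to 0.932), and the count of mmu-miR-29c-3p relative to mmu-miR-29a-3p was 0.570 times that at 0 μM (0.356 to 0.897). Both minor members were therefore lower against the main member at 10 μM by more than counting error. Between 100 and 0 μM the same factors were 0.992 (0.488 to 1.84) and 1.48 (0.716 to 2.81), and neither difference was detectable at this depth. Between 100 and 10 μM the factor of mmu-miR-29c-3p relative to mmu-miR-29a-3p was 2.59 (1.2 to 5.26). That of mmu-miR-29b-3p relative to mmu-miR-29a-3p was 1.52 (0.729 to 2.92), an interval that held 1. mmu-miR-29c-3p relative to mmu-miR-29b-3p did not differ beyond counting error in any of the comparisons.

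With the size factors, the arms of miR-29c differed in direction at 100 μM. With total counts the 5p arm was level with 0 μM, and only the ratio of the arms does not depend on the scaling. miR-29c-5p, the arm across from mmu-miR-29c-3p in the same hairpin, had 43 counts at 0 μM, 31 at 10 μM and 49 at 100 μM, and normalized counts of 31.2, 23.0 and 89.8. Its count was like that of mmu-miR-29c-3p at 10 μM, where both had 31, and was 4.08 times that of mmu-miR-29c-3p at 100 μM. The share of miR-29c counts from the 3p arm was 58.7% without DEHP (Wilson 49.0% to 67.6%), 50% with 10 μM (37.9% to 62.1%) and 19.7% with 100 μM (11.6% to 31.3%). The ratio of the 3p to the 5p count at 100 μM was 0.173 times that at 0 μM (0.0752 to 0.381), and at 10 μM it was 0.705 times that at 0 μM (0.357 to 1.39). The first interval lay below 1, and the second held it.

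Such a difference between arms was also found for other hairpins. Of the 174 hairpins whose arms both passed the minimum, 26 had a log2 change of the 3p to 5p ratio below -2 between 0 and 100 μM (14.9%), miR-29c among them with -2.49, and 34 had one above 2. miR-29c was 18th from the lowest, and the median change of the 174 was 0.44. Between 0 and 10 μM 1 hairpin lay below -2 and 1 above 2. With the size factors miR-29c-5p had a log2 ratio of 1.51 between 100 and 0 μM (0.90 to 2.15), which 26.7% of all miRNAs shared as a ratio above 1. With total counts this ratio was 0.01, so that the arm was level with 0 μM while the 3p arm was lower. miR-29b-2-5p had 16, 10 and 0 counts, and its mean normalized count of 6.34 was under the minimum of 10. A floor of 3 counts for the library is 5.50 normalized counts at 100 μM. The level of miR-29b-2-5p at 0 μM was 2.11-fold that floor, a value that leaves out the counting error of its 16 counts. The counting interval of its log2 ratio between 100 and 0 μM had its upper end at -0.61.

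**Figure D4:**
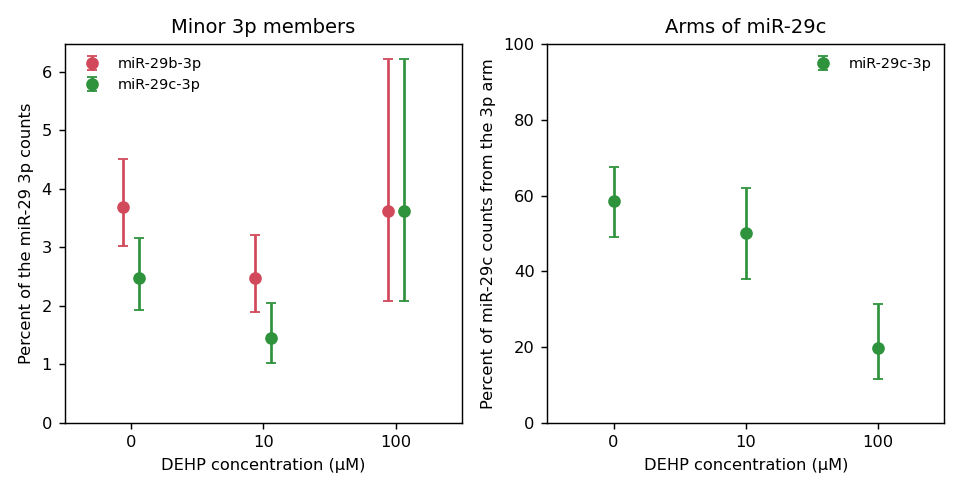
Left, percent of the counts of the 3 members that came from mmu-miR-29b-3p and mmu-miR-29c-3p, and right, percent of miR-29c counts from its 3p arm, in the libraries of 0, 10 and 100 μM DEHP (x axis), with Wilson 95% intervals as bars. The share of the miR-29c 3p arm was 58.7% at 0 μM and 19.7% at 100 μM.

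The members with counts were poor in G and C. The GC content was 40.9% for mmu-miR-29a-3p, 34.8% for mmu-miR-29b-3p and 36.4% for mmu-miR-29c-3p, and 50% for miR-29c-5p. RefSeq sequences matched 529 of the 627 miRNAs by name and 497 of the 587 (84.7%). Among these, the 100 miRNAs with a GC content of up to 40% had a median log2 ratio of -0.56 between 100 and 0 μM, and 38.0% of them lay below -1. The 222 miRNAs over 40% and up to 50% had a median of -0.13, the 106 over 50% and up to 60% a median of 0.39, and the 69 above that a median of 0.11. Across the 497 miRNAs, which share their libraries, the Spearman correlation of GC content with this ratio was 0.17, and it was 0.08 for the ratio of 10 against 0 μM. With a linear trend on GC content removed, the log2 ratios at 100 μM were -1.42 for mmu-miR-29a-3p, -1.27 for mmu-miR-29b-3p and -0.73 for mmu-miR-29c-3p. The arm across, miR-29c-5p, was 13.6 points richer in GC than its partner. In 17 hairpins with sequences for both arms and a 3p arm at least 10 points poorer in GC, the median log2 change of the 3p to 5p ratio was -1.21, and in 26 with a 3p arm at least 10 points richer it was 0.47. Over all 143 hairpins with sequences for both arms, whatever their GC difference, the median change was 0.24. The Spearman correlation of the GC difference with the change over these 143 was 0.07. The part of GC content in the arm difference was not tested further.

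**Figure D5:**
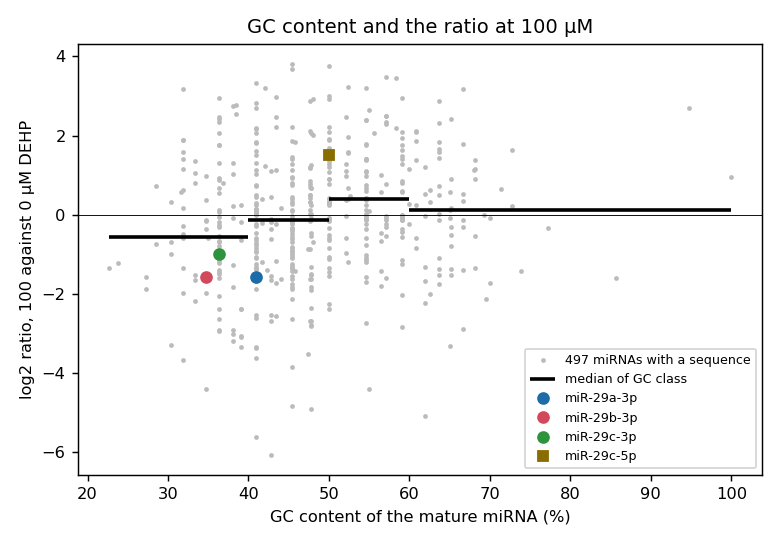
Log2 ratio of 100 against 0 μM DEHP (y axis) by GC content of the mature miRNA (x axis, percent) for 497 miRNAs, with the medians of 4 GC classes as black lines. The 3 members lie below the median of their class, which was -0.56 up to 40% and -0.13 from 40% to 50%, and miR-29c-5p at 50% lies above it.

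Cell type markers were read from the same libraries. miR-202-5p, a miRNA of gonadal somatic cells, had 41367, 53172 and 9799 counts, and miR-202-3p, from the same hairpin, had 1614, 1261 and 1098. The gonadal marker was thus present in every library, but its arms stood on opposite sides of 0 between 100 and 0 μM, at -0.74 for miR-202-5p and 0.78 for miR-202-3p, and between 10 and 0 μM, at 0.39 and -0.32. Both arms of miR-126a, made by endothelial cells, were lower at 100 μM, with log2 ratios of -2.12 and -3.12, and at 10 μM they stood at 0.17 and 0.25. As a sum, the endothelial arms went from 46170 normalized counts at 0 μM to 52252 at 10 μM and 9855 at 100 μM. The 3 germ cell miRNAs (miR-291a-3p, miR-294-3p and miR-295-3p) were higher at 100 μM, with log2 ratios of 0.93, 2.70 and 0.97. Their sum was 1202, 922 and 3860 normalized counts. These 3 did not stand for their whole cluster. Of the 6 other arms of the miR-290 to miR-295 hairpins that passed the minimum, looked up after the values of the 3 were seen, 4 were below 0 (miR-293-5p at -1.44, miR-290a-5p at -0.69, miR-293-3p at -0.17 and miR-291a-5p at -0.11) and 2 above it (miR-292a-5p at 2.93 and miR-292a-3p at 1.16). With total counts only miR-294-3p of these 3 stayed above 0, at 1.18, while both arms of miR-126a stayed below it, at -3.64 and -4.64. Of the 3 blood miRNAs, miR-451a and miR-486a-5p passed the minimum and had ratios of -0.27 and -0.16 between 100 and 0 μM. The third, miR-144-3p, was under the minimum, with 16, 3 and 2 counts and log2 ratios of -2.15 at 10 μM and -1.54 at 100 μM. Of 3 miRNAs of neurons and liver, listed as miRNAs that should be low, miR-124-3p had no row and miR-122-5p was low, with 22, 14 and 8 counts. miR-9-5p was not low: it had 705, 670 and 360 counts, above the median counts of the libraries (232, 227 and 97). The endothelial arms were thus lower at 100 μM, as the miR-29 members were, while the arms of the germ cell cluster lay on both sides of 0, and the part of cell makeup in the miR-29 ratios was not tested.

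Other miRNAs with known roles in the matrix lay on both sides of 0, in shares near those of all miRNAs. Of 15 such miRNAs, all had a row and 14 passed the minimum. Between 100 and 0 μM, 3 of the 14 lay below -1, 3 above 1 and 8 between, with a median of 0.08, and of all miRNAs 25.7% lay below -1 and 26.7% above 1. The lowest was miR-141-3p, which represses the Zeb factors of epithelial to mesenchymal transition, with 157, 171 and 1 counts. The highest was miR-143-3p, a miRNA of smooth muscle and stroma, at 1.92. It did not stand for a rise of stromal miRNAs, since miR-145a-5p, also in the list, was at -1.20. The other arm of its hairpin, miR-143-5p, was not in the list and was at -3.06. miR-21a-5p, known to promote fibrosis, was at 0.12, and miR-30c-5p, which represses the matrix protein CTGF, was at -0.23. With total counts the median of the 14 was -1.43, with 9 below -1 and 0 above 1, against a median of -1.53 for all miRNAs, of which 63.9% lay below -1 and 5.06% above 1.

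The family was also set beside miRNAs known to repress other enzymes of DNA methylation and chromatin. Of 7 miRNAs that repress Dnmt1 (miR-148a-3p, miR-148b-3p and miR-152-3p) or Ezh2 (miR-101a-3p, miR-101b-3p, miR-26a-5p and miR-26b-5p), 4 had a log2 ratio above 1 between 100 and 0 μM and 0 had one below -1, where 26.7% and 25.7% of all miRNAs did. Their median was 1.24, against -1.57 for the miR-29 members and -0.01 for all miRNAs. Several of the 7 are close relatives by name, so they do not count as 7 separate observations. They were also chosen with earlier results of these data known, and the study itself reported miR-148a-3p as differing. With total counts the median of the 7 was -0.28, below 0, against -3.05 for the miR-29 members and -1.53 for all miRNAs. The highest was miR-148a-3p, with 311575 counts at 0 μM and 1237350 at 100 μM (log2 ratio 3.33), and the lowest was miR-26a-5p, at -0.47. At 10 μM the median of the 7 was -0.50, and 0 of the 7 lay beyond 1 in either direction, where 5.11% of all miRNAs lay below -1 and 1.53% above 1.

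The miRNAs nearest to each member in the plane of the ratios at 10 and 100 μM were looked up among the 374 whose mean reached 100 normalized counts. The nearest to mmu-miR-29a-3p were miR-331-3p, at a distance of 0.13 with log2 ratios of -0.19 and -1.69, miR-293-5p at 0.16 and miR-615-3p at 0.19. For mmu-miR-29b-3p they were miR-340-5p, at a distance of 0.04 with ratios of -0.70 and -1.58, miR-201-5p at 0.17 and miR-455-5p at 0.26. For mmu-miR-29c-3p they were miR-24-2-5p at 0.32, miR-210-3p at 0.32 and miR-136-3p at 0.36. These distances rest on 3 libraries. For all 3 members they were smaller than the width of the member's own counting interval between 100 and 0 μM. That interval was narrowest for mmu-miR-29a-3p, at -1.75 to -1.40.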

How the data were processed

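Total RNA of cultured ovaries was sequenced for small RNAs as 1 library per DEHP concentration. The deposited values are raw counts, 1 row for each mature miRNA and precursor. According to the methods of the study, the authors trimmed adapters and low-quality bases, aligned reads by bowtie2 to the reference genome of the mouse and obtained the counts from miRDeep2. Their processing notes name mm10 and DESeq2. Versions and the miRBase release are not given in the sources used here. Of 961 rows, the one with the highest total was kept for each of 627 miRNAs, and 79 miRNAs had several rows. Totals were 5253367, 5064602 and 5952274 counts. Intervals and floors (3 counts) hold the counting error of reads only. Reads without molecular identifiers are not separate molecules, so these intervals may be too narrow.

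Size factors came from DESeq2 1.42.0, and other scaling factors from edgeR 4.0.16, in R 4.3.3. Ratios and intervals were computed in Python 3.11.15 with scipy 1.17.1. The computation was run on simulated Poisson counts with changes drawn evenly in both directions, which does not test the choice of scaling between these libraries. With a single library in each group no differential test was run. Named miRNAs were the members, other miR-29 arms, the marker and pathway lists with the ends of each, and the 3 nearest to each member. Some other arms of listed hairpins were named beside them. The members and lists were chosen with earlier results of these data known. The planned share of arms of miR-29a could not be computed without a row for its 5p arm, and miR-29c was used in its place. Other scalings, 1 normalized count added, summed or lowest rows, other minimums, a threshold of 1 and a GC trend were tried. Hairpin positions came from GENCODE M21 and mature sequences from RefSeq.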

Additional observations from a re-analysis of the deposited data

How the results depend on the processing

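No paired analysis was possible because each DEHP concentration had a single library, for which reason no replicate was left out either. The planned share of miR-29a counts from the 3p arm gave no value. The GC trend and the share of miR-29c arms were chosen after seeing the data. Scaling decided how far the members lay from 0 μM. Between 100 and 0 μM the median log2 ratio of the members was -1.57 as reported. It became -3.05 under total-count scaling, with 3 members beyond 2 in place of 0, and -2.31 under totals that leave out the 10 most abundant miRNAs, with 2. Between 100 and 10 μM the median was -0.82, and -2.32 with total counts, and 2 members lay beyond 2 under that scaling and 1 when the 10 most abundant were left out. At a threshold of 1, 2 members passed between 100 and 0 μM and 1 between 100 and 10 μM. These moves follow from the common shift of all miRNAs, whose median between 100 and 0 μM moved by -1.52 with total counts, by -0.77 without the 10 most abundant, by 0.08 with TMM and by 0.01 with the upper quartile. With the GC trend removed, mmu-miR-29c-3p between 100 and 10 μM was at 0.0075, on the other side of 0 but inside its counting interval. Summing the 2 equal rows of mmu-miR-29b-3p counts it double, and its share became 7.11%, 4.82% and 6.98% at 0, 10 and 100 μM, with 90.5% at 0 μM and 93.8% at 10 μM for mmu-miR-29a-3p. Of the ratios of the 3 members and miR-29c-5p under the alternatives, 94 stayed inside their counting interval with the same sign, 13 moved outside it and 1 changed sign. The 94 do not measure robustness, because the choice of rows, TMM and the upper quartile could barely move these ratios. All moves came from the scalings by totals, except that of mmu-miR-29a-3p at 10 μM with the GC trend removed.

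The number of all miRNAs beyond 2 between 100 and 0 μM was 116, of which 52.6% were higher, and with total counts it was 217, of which 1.84% were higher. Without the 10 most abundant miRNAs 15.0% were higher. Between 100 and 10 μM, 123 became 234 with total counts. At a threshold of 1 the numbers were 308, 318 and, between 10 and 0 μM, 39, and with a minimum of 100 they were 75, 81 and 1. Between 10 and 0 μM, 4 became 9 with no minimum. Depth limits the minor members most, since each had 12 counts at 100 μM (exact Poisson interval 6.20 to 21.0).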
